A study of Mus musculus with 6 samples.

Results

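The 10 genes described here encode receptors by which macrophages bind apoptotic cells and secreted proteins that link such cells to these receptors. They were chosen by name, with earlier results of these data known, as *Mertk*, *Axl*, *Gas6*, *Pros1*, *Itgb5*, *Itgav*, *Stab1*, *Marco*, *Mfge8* and *Lrp1*. All 10 were found among the 24445 genes of the count table, and each was read from its RefSeq row with the most counts in all. RNA-seq libraries came from bone marrow-derived macrophages (BMDMs) of female C57Bl/6J mice, and 3 libraries per group were compared. AclyM-KO cells carry loxP sites in both copies of *Acly* and a Cre transgene driven by *Lyz2*, a gene active in myeloid cells, so that part of *Acly* is removed in the myeloid lineage. Ctrl cells, labelled WT, were from Acly fl/fl littermates and share the floxed alleles. Both groups were grown for 7 days in medium containing L929-cell supernatant, and both received 100 U/mL IL-4 for 24 h, so that no effect of IL-4 itself can be read here. *Acly* encodes ATP citrate lyase, which makes cytosolic acetyl-CoA from citrate. The comparison asks how expression in IL-4-treated macrophages differs when *Acly* is deleted. The Cre transgene is named for AclyM-KO cells only, so Cre itself and the loss of *Acly* cannot be told apart here. The study describes its replicates once as biological and once as technical replicates from pooled mice, so the p-values given here measure the spread between libraries and not between mice.

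Efferocytosis is the uptake of dying cells by phagocytes. A dying cell exposes phosphatidylserine on its outer membrane, and macrophages recognize this lipid either directly, for example through stabilin-1, or through soluble bridging proteins. Gas6 joins phosphatidylserine to the receptor tyrosine kinases Tyro3, Axl and MerTK, and protein S joins it to some of these kinases. MFG-E8 joins phosphatidylserine to the integrins αvβ3 and αvβ5. LRP1 responds to calreticulin on the dying cell, and the scavenger receptor MARCO binds a wide range of particles, microbes and dying cells. IL-4-treated macrophages are commonly described as active in this uptake.

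The libraries held 12151975 to 15587283 counts on the rows used, and 12023 genes were tested with edgeR. Levels are counts scaled to a common library size (CPM) and are given in the order of libraries 1, 2 and 3. In this text, a gene rose or fell where its adjusted p-value was under 0.05, and it is said to pass the fold change limit where its log2 fold change also lay beyond 0.58 in either direction. *Acly* itself was at 332, 321 and 350 CPM in Ctrl and at 146, 134 and 136 CPM in AclyM-KO, or 41.4% of the Ctrl level on average. Its log2 fold change was -1.27 (SE 0.053, edgeR adjusted p = 5.22e-10), and reads from the parts of the transcript that are not deleted are still counted on its row. Macrophage markers were abundant, with summed levels of 16390 to 16660 CPM in AclyM-KO and 18930 to 19880 CPM in Ctrl. Most of this difference was *Lyz2*, the gene that drives Cre, which fell from 6595 ± 515 to 4142 ± 120 CPM (n = 3 each, log2 fold change -0.67, edgeR adjusted p = 5.79e-08). Without it, the other 9 markers summed to 12171 to 12601 CPM in AclyM-KO and 12358 to 12937 CPM in Ctrl, and the groups overlapped. Of the 9 macrophage markers tested, 3 fell and 2 rose. Of all genes tested, 12.6% fell and 12.4% rose, and these shares apply to the marker counts that follow as well. The neutrophil list summed to 24.9 to 26.7 CPM in AclyM-KO and 17.1 to 19.3 CPM in Ctrl, with 2 of 4 tested markers higher, and the mast cell or basophil list to 7.47 to 8.60 and 2.97 to 4.63 CPM, nearly all of it *Kit*, with 4 of its 6 markers at 0. The endothelial list was at 13.2 to 15.4 CPM in AclyM-KO and 19.6 to 21.3 CPM in Ctrl, mostly *Pecam1*, while *Emcn* was at 0. Dendritic cell markers summed to 4.32 to 5.28 CPM in AclyM-KO and 3.31 to 4.50 CPM in Ctrl, and lymphocyte markers to 1.77 to 2.25 and 2.62 to 3.24 CPM. Fibroblast markers summed to 1.23 to 2.06 CPM in AclyM-KO and 0.38 to 1.06 CPM in Ctrl. Megakaryocyte markers summed to 0.546 to 0.685 CPM in AclyM-KO and 0.304 to 0.54 CPM in Ctrl, and erythroid markers to at most 0.0818 CPM in any library. The part of other cells in the results was not tested, and in RNA from a whole culture fewer cells of a type and less RNA per cell cannot be told apart.

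Ctrl library 2 stood apart from the other Ctrl libraries in its long transcripts. For 399 genes of at least 10 CPM with transcripts over 8 kb, the median log2 difference of this library from the other Ctrl libraries was 0.17, whereas it was -0.04 for 515 genes under 1 kb. Over 8 kb, the same median for the other 5 libraries, each against the rest of its group, lay between -0.09 and 0.04. This library is therefore left out as a check, and values without it are given for some of the genes below. The difference matters most for *Lrp1*, whose transcript of 14888 bases is the longest of the set.

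Of the 10 genes, 4 differed between the groups. *Mertk*, *Itgb5* and *Lrp1* fell and *Mfge8* rose in AclyM-KO macrophages, while *Axl*, *Gas6*, *Pros1*, *Itgav*, *Stab1* and *Marco* did not pass the test. The 3 genes that fell compare with 12.6% of all 12023 genes tested, and the 1 gene that rose with 12.4%. Only *Mertk* passed the fold change limit downward, as did 2.57% of all genes, and 0 of the 10 passed it upward, as did 2.98%. The median log2 fold change was -0.12 over the 10 genes and 0.0014 over all genes tested. The CPM of the groups did not overlap for 5 of the 10 genes, 4 of them lower in AclyM-KO, and for 40.2% of all genes tested.

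**Figure D1:**
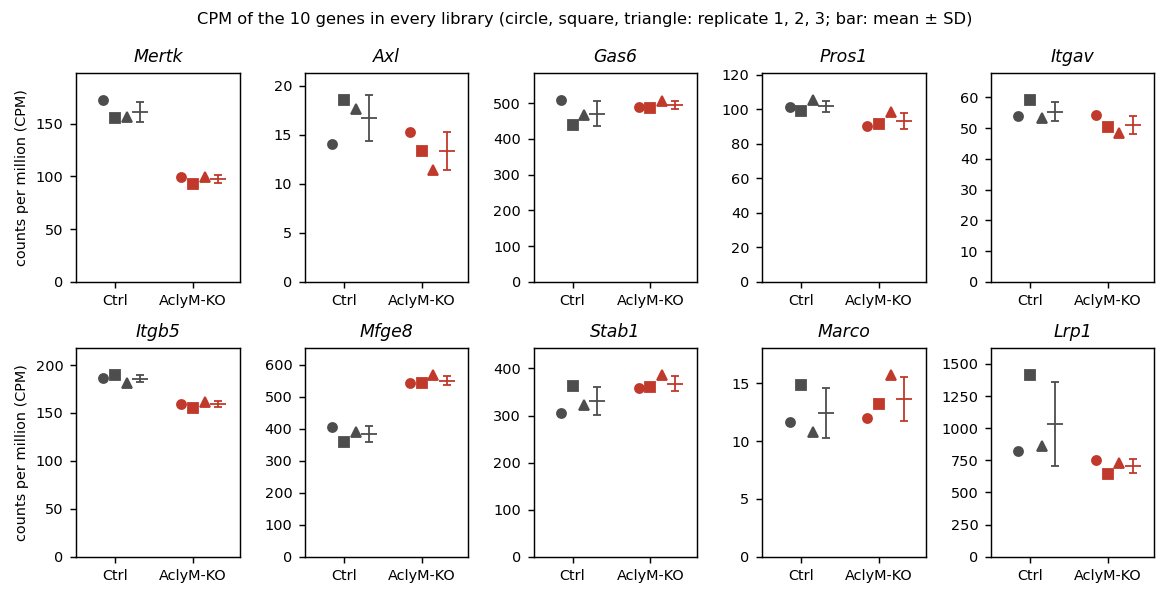
CPM of the 10 genes (linear vertical axes from 0) in the 3 Ctrl libraries (grey) and the 3 AclyM-KO libraries (red), with marker shapes for replicates 1 to 3 and the mean ± SD beside them. The groups are apart for *Mertk*, *Pros1*, *Itgb5*, *Mfge8* and *Lrp1*, and the *Lrp1* value of 1411 CPM in Ctrl library 2 lies far above the other Ctrl libraries.

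The sequences in front of the start sites of *Mertk* and *Mfge8* are shown because these genes had the lowest adjusted p-values of the set and moved in opposite directions. Both are RefSeq sequences of GRCm38.p6, 250 bases that end directly before the annotated transcription start, written 5′ to 3′ on the strand of the gene. For *Mertk* they lie at chr2:128698665-128698914 on the plus strand and for *Mfge8* at chr7:79149061-79149310 on the minus strand. Capitals mark matches to GGGCGG (the GC box) or to GAGGAA (the core bound by the myeloid factor PU.1), on either strand.
Mertk: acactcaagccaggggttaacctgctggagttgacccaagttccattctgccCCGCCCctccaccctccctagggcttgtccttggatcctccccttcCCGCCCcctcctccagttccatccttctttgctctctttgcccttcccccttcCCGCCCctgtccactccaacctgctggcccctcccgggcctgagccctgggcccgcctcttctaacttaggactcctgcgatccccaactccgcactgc
Mfge8: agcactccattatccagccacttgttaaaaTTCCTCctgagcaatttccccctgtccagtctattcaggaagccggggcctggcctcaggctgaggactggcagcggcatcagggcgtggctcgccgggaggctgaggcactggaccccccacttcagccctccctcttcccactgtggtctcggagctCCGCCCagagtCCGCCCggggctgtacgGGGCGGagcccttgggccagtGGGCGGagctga

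The *Mertk* sequence held 3 GC boxes, which begin 198, 152 and 99 bases before the start, and no PU.1 core. The *Mfge8* sequence held 4 GC boxes, which begin 61, 50, 33 and 12 bases before the start, and a PU.1 core beginning at 220. Both sequences were rich in G and C, with 63.6% for *Mertk* and 65.2% for *Mfge8* against a median of 52.4% over 32851 promoters of the same length. A GC box was found in 7 of the 10 genes and in 32.7% of all promoters, and the PU.1 core in 5 of the 10 and in 23.3%. The longer PU.1 match GAGGAAGT, which contains the core, was found in *Itgav* only among the 10 genes and in 2.44% of all promoters. *Pros1* held the palindrome bound by STAT6 (TTC and GAA with 4 bases between them), which carries the IL-4 signal, as did 5.85% of all promoters. *Stab1* held TGCTGA, a half-site of MAF factors, found in 16.1%. None of the 10 windows held AGGTCA, the half-site of nuclear receptors (14.0% of all promoters), and hence neither its direct repeat with a spacer of 4 bases, which LXR binds (0.0152%), nor that with a spacer of 1 base, which PPAR binds (0.0335%). TCACNCCAC (a sterol regulatory element, 1.05%), CACGTG (the E-box, 6.02%) and TATAAA (the TATA box, 12.4%) were also not found in these 10 windows. All motifs were searched by exact letters on both strands, and a match describes these letters only.

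*Mertk*, the receptor tyrosine kinase best known for the uptake of apoptotic cells by macrophages, had the lowest adjusted p-value of the 10 genes. It lies on the plus strand of chromosome 2 from 128698956 to 128802894 (GRCm38), and its transcript has 19 exons. It was at 172, 155 and 156 CPM in Ctrl (161 ± 9.46, mean ± SD, n = 3) and at 99.3, 93.0 and 99.6 CPM in AclyM-KO (97.3 ± 3.76, n = 3). All AclyM-KO libraries were thus well below all Ctrl libraries, and averaged 60.4% of the Ctrl level. The log2 fold change was -0.73 (SE 0.055, edgeR adjusted p = 2.56e-07), which ranked 42 of 12023 genes by p-value. This change did not rest on any single library, since dropping any of the 6 gave log2 fold changes between -0.76 and -0.68.

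*Axl*, a receptor of the same family that binds Gas6 and is usually associated with inflammatory conditions, was expressed at a far lower level. Its locus spans 25757273 to 25788705 on chromosome 7 (minus strand), and 208, 226 and 232 reads were counted in Ctrl and 224, 207 and 166 in AclyM-KO. In CPM these were 14.1, 18.5 and 17.6 in Ctrl (16.7 ± 2.35, n = 3) and 15.3, 13.3 and 11.4 in AclyM-KO (13.3 ± 1.95, n = 3). The groups overlapped, because Ctrl library 1 was below AclyM-KO library 1. The log2 fold change of -0.32 (SE 0.127) did not pass the test (edgeR adjusted p = 0.0787). It did pass without Ctrl library 1 (-0.44, edgeR adjusted p = 0.0190) and without AclyM-KO library 1 (-0.43, edgeR adjusted p = 0.0445).

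*Tyro3*, the remaining kinase of the family, rose from a very low level. Only 32, 21 and 23 reads fell on it in the Ctrl libraries, against 68, 69 and 60 in AclyM-KO, which gave 1.88 ± 0.249 and 4.40 ± 0.266 CPM (n = 3 each). Its log2 fold change was 1.22 (SE 0.207, edgeR adjusted p = 5.12e-04). Per kilobase of transcript, *Axl* made up 8.18%, 11.5% and 10.97% of the 3 kinases in Ctrl and 14.0%, 13.1% and 10.8% in AclyM-KO. This difference of 2.42 percentage points was within the spread between libraries (two-sided exact permutation test p = 0.3, adjusted over 3 shares 0.3). With 3 libraries against 3, this test cannot give a p-value under 0.1. *Mertk* was the most abundant of the 3 in every library, at 11.1, 7.61 and 8.03 times the per-kilobase level of *Axl* in Ctrl and at 5.89, 6.33 and 7.94 times in AclyM-KO.

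Neither bridging protein of these kinases passed the test. *Gas6*, on the minus strand of chromosome 8 from 13465374 to 13494490, encodes the ligand shared by all 3 kinases and was among the most abundant of the 10 genes. It was at 508, 438 and 467 CPM in Ctrl (471 ± 35.2, n = 3) and at 488, 487 and 507 CPM in AclyM-KO (494 ± 11.1, n = 3). The AclyM-KO values lay within the Ctrl range, and the log2 fold change was 0.07 (SE 0.053, edgeR adjusted p = 0.375). Because counting did not separate strands, it matters that 1.33% of the exonic bases of *Gas6* lie under exons of *Tmem255b* on the other strand.

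*Pros1*, on the plus strand of chromosome 16 from 62854307 to 62929346, encodes protein S, which also serves as an anticoagulant in blood. It was at 101, 98.8 and 105 CPM in Ctrl (102 ± 3.17, n = 3) and at 90.3, 91.3 and 98.6 CPM in AclyM-KO (93.4 ± 4.55, n = 3). The groups did not overlap, but AclyM-KO library 3 came within 1 CPM of the lowest Ctrl library. The log2 fold change of -0.12 (SE 0.053) did not pass the test (edgeR adjusted p = 0.0988), although it did without Ctrl library 2 (-0.15, edgeR adjusted p = 0.0395). As a share per kilobase of both ligands, *Gas6* took 86.6%, 85.2% and 85.2% in Ctrl and 87.5%, 87.4% and 86.9% in AclyM-KO. All AclyM-KO shares were higher, by 1.601 percentage points in the mean, at the smallest p-value the design allows (two-sided exact permutation test p = 0.1, adjusted over 3 shares 0.15). Per kilobase, *Gas6* was at 4.98, 4.76 and 5.06 times the level of *Mertk* in Ctrl and at 8.30, 8.85 and 8.59 times in AclyM-KO. This ratio was computed after the values of both genes were seen and is given without a test.

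*Mfge8* was the 1 gene of the 10 that rose in the edgeR fit described above. It encodes milk fat globule-EGF factor 8 (MFG-E8), the secreted protein that bridges phosphatidylserine to αv integrins, and lies on the minus strand of chromosome 7 from 79133768 to 79149060. It was at 406, 358 and 391.5 CPM in Ctrl (385 ± 24.6, n = 3) and at 542, 543 and 567 CPM in AclyM-KO (551 ± 14.3, n = 3). Every AclyM-KO library lay above every Ctrl library, and the average was 143% of Ctrl. The log2 fold change was 0.52 (SE 0.051, edgeR adjusted p = 3.04e-06), ranking 128 of 12023 genes by p-value, and dropping any of the 6 libraries gave values between 0.46 and 0.55. The table has 2 RefSeq rows for *Mfge8* with identical counts in every library, so its isoforms cannot be told apart. *Mfge8* and *Gas6* were at nearly the same level per kilobase in Ctrl, with ratios of 1.01, 1.04 and 1.06, whereas *Mfge8* was at 1.41, 1.41 and 1.42 times the level of *Gas6* in AclyM-KO. These ratios, too, were computed after the values were seen.

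Of the integrin chains in the set that receive MFG-E8, β5 fell and αv did not pass the test. *Itgb5*, which encodes the β5 chain and lies on the plus strand of chromosome 16 from 33829665 to 33949338, was at 187, 189 and 181 CPM in Ctrl (186 ± 3.93, n = 3). In AclyM-KO it was at 159, 156 and 162 CPM (159 ± 3.12, n = 3), or 85.5% of Ctrl. The decrease was small but much larger than the spread within either group, which did not overlap (log2 fold change -0.23, SE 0.047, edgeR adjusted p = 0.00262).

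*Itgav*, on the plus strand of chromosome 2 from 83724397 to 83806916, encodes the αv chain with which β5 pairs. It was at 53.8, 59.0 and 53.3 CPM in Ctrl (55.4 ± 3.14, n = 3) and at 54.2, 50.3 and 48.5 CPM in AclyM-KO (51.0 ± 2.89, n = 3). The groups overlapped, and the log2 fold change of -0.12 (SE 0.063) did not pass the test (edgeR adjusted p = 0.194). Per kilobase, *Itgb5* was at 7.45, 6.90 and 7.32 times the level of *Itgav* in Ctrl and at 6.31, 6.65 and 7.17 times in AclyM-KO, with overlap between the groups.

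Among 6 other integrin chains tested, which include partners of αv and chains of other integrins, 1 rose and 1 fell. This is 33.3% of them, against 24.9% of all genes tested. *Itgb3*, encoding the β3 chain of the other MFG-E8 receptor and counted among the receptors outside the set as well, rose from 386 ± 44.3 to 516 ± 18.1 CPM (n = 3 each, log2 fold change 0.42, edgeR adjusted p = 2.62e-04). *Itgam*, the αM chain of complement receptor 3, fell from 738 ± 50.5 to 608 ± 28.8 CPM (log2 fold change -0.28, edgeR adjusted p = 0.00113). *Itgb1* was at 999 ± 25.4 and 998 ± 35.7 CPM, with a log2 fold change of -0.0021 whose sign changed with the scaling and with the library left out. *Itgb8* had a log2 fold change of -0.41, from 5.55 ± 0.5798 to 4.17 ± 0.276 CPM, and did not pass the test (edgeR adjusted p = 0.0887), and *Itgb6* had no counts in any library. As a share per kilobase of the β1, β3, β5 and β8 transcripts, *Itgb5* took 15.3%, 14.5% and 14.2% in Ctrl and 11.8%, 11.8% and 12.8% in AclyM-KO. The shares did not overlap, with a difference of -2.55 percentage points (two-sided exact permutation test p = 0.1, the smallest possible, adjusted over 3 shares 0.15).

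*Lrp1*, on the minus strand of chromosome 10 from 127538161 to 127621148, encodes a very large endocytic receptor of the LDL receptor family with 89 exons in the transcript used. It was at 823, 1411 and 864 CPM in Ctrl (1033 ± 328, n = 3) and at 752, 645 and 727 CPM in AclyM-KO (708 ± 56.0, n = 3). The groups did not overlap, but Ctrl library 2 was far above the other 2 Ctrl libraries. The log2 fold change was -0.55 (SE 0.139, edgeR adjusted p = 0.00982). Without Ctrl library 2 it was -0.26 (SE 0.047, edgeR adjusted p = 3.59e-04), so the decrease was smaller and still passed. It did not pass without AclyM-KO library 2 (-0.48, edgeR adjusted p = 0.0677) or with DESeq2 on all libraries (-0.55, DESeq2 adjusted p = 0.152). In Ctrl library 2, *Lrp1* was 0.74 higher on the log2 scale than in the mean of the other Ctrl libraries. Of the 399 genes with transcripts over 8 kb, only 3 had a larger difference, and 95% lay below 0.53.

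**Figure D2:**
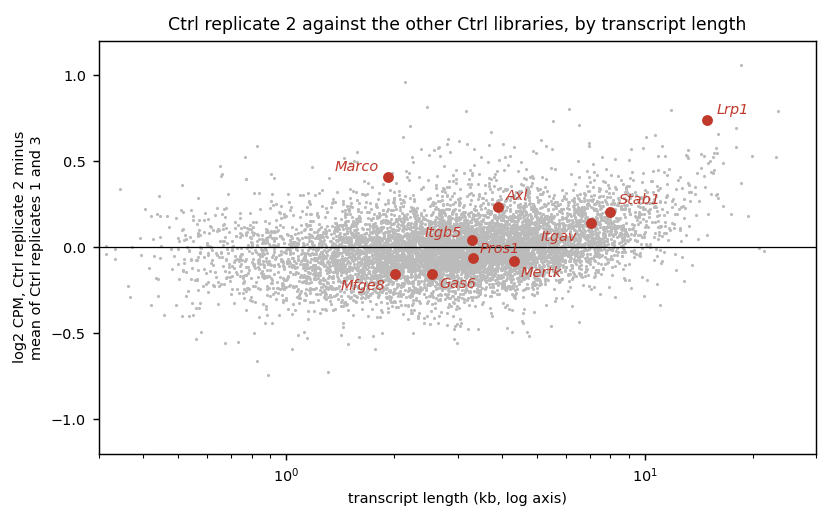
Difference in log2 CPM between Ctrl replicate 2 and the mean of Ctrl replicates 1 and 3 (vertical axis) against transcript length in kb (log axis), with the 10 genes in red and other genes of at least 10 CPM in grey. The grey points drift upward with length, to a median of 0.17 over 8 kb, and *Lrp1* lies at 0.74 near the top edge.

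Other members also differed in Ctrl library 2, but by less. *Marco* was 0.41 higher there than in the other Ctrl libraries, a larger difference than in all but 7 of 1646 genes of 1 to 2 kb. This difference rests on few counts, with 172, 182 and 142 in Ctrl libraries 1, 2 and 3. *Axl* was 0.23 higher, *Stab1* 0.21 and *Itgav* 0.14, while *Mfge8* and *Gas6* were 0.16 and 0.15 lower (written as differences in log2 CPM). Leaving the library out moved *Stab1* past the test, *Pros1* likewise, and no member that had passed lost its call.

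*Stab1*, on the minus strand of chromosome 14 from 31139013 to 31168641, encodes stabilin-1, a multifunctional scavenger receptor of alternatively activated macrophages that binds phosphatidylserine directly. It was at 306, 363 and 323 CPM in Ctrl (331 ± 29.2, n = 3) and at 358, 360 and 385 CPM in AclyM-KO (368 ± 15.2, n = 3). The groups overlapped through Ctrl library 2 alone. The log2 fold change of 0.15 (SE 0.059) did not pass the test (edgeR adjusted p = 0.0731), whereas without that library it was 0.22 (edgeR adjusted p = 0.00145). Of its exonic bases, 1.40% lie under exons of *Nt5dc2* on the other strand.

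*Marco*, on the minus strand of chromosome 1 from 120474538 to 120505024, encodes a class A scavenger receptor and had the fewest counts of the set. It was at 11.6, 14.9 and 10.8 CPM in Ctrl (12.4 ± 2.17, n = 3) and at 12.01, 13.2 and 15.7 CPM in AclyM-KO (13.6 ± 1.88, n = 3). The groups overlapped through Ctrl library 2 alone, and the log2 fold change was 0.14 (SE 0.135, edgeR adjusted p = 0.496). Without that library it was 0.28 and did not pass the test either (edgeR adjusted p = 0.141). The change of -0.23 seen for *Itgb5* is in size less than 2 times the standard error of 0.135 of *Marco*.

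**Figure D3:**
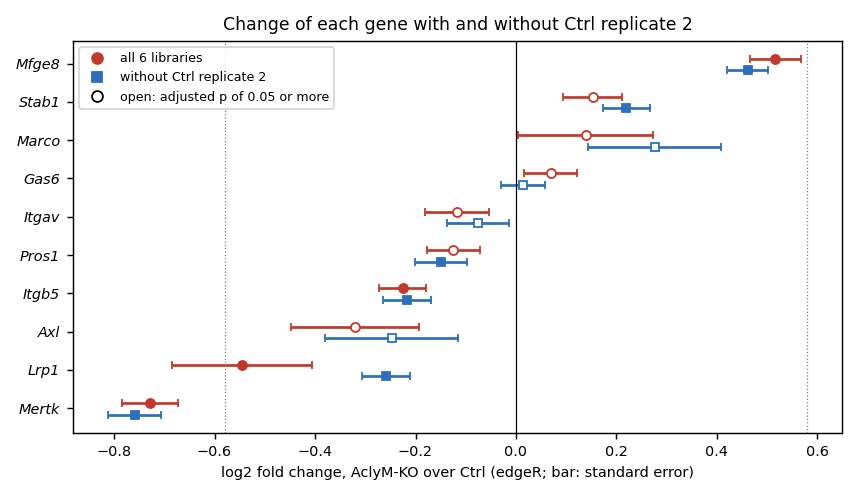
Log2 fold change of AclyM-KO over Ctrl from edgeR with its standard error for the 10 genes (horizontal axis), with all 6 libraries (red circles) and without Ctrl replicate 2 (blue squares). Filled symbols have an adjusted p under 0.05 and dotted lines mark 0.58 in both directions. *Lrp1* moved from -0.55 to -0.26 and *Stab1* from 0.15 to 0.22, while *Mertk* was at -0.73 and -0.76 and *Mfge8* at 0.52 and 0.46.

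Levels can be compared between genes only per length of transcript. In Ctrl, *Mfge8* (192 ± 12.3 CPM per kilobase) and *Gas6* (185 ± 13.8) were highest and did not differ beyond their spread. *Lrp1* (69.4 ± 22.03) and *Itgb5* (56.6 ± 1.198) came next and overlapped, as did *Stab1* (41.4 ± 3.65) and *Mertk* (37.4 ± 2.20). *Pros1* followed at 30.8 ± 0.960 CPM per kilobase, below every *Mertk* value. *Itgav* (7.85 ± 0.444) and *Marco* (6.46 ± 1.13) overlapped, and *Axl* was lowest at 4.29 ± 0.602 CPM per kilobase (SD, n = 3 throughout).

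In AclyM-KO, *Mfge8* (274 ± 7.14 CPM per kilobase) was above *Gas6* (194 ± 4.35) beyond the spread of both, and *Mertk* (22.6 ± 0.875) was below *Pros1* (28.3 ± 1.38) in every library. *Itgb5* (48.4 ± 0.951), *Lrp1* (47.5 ± 3.76) and *Stab1* (46.0 ± 1.90) overlapped with each other, whereas in Ctrl *Stab1* lay below every *Itgb5* value. *Itgav* (7.23 ± 0.409), *Marco* (7.08 ± 0.978) and *Axl* (3.42 ± 0.501) remained the lowest of the set.

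**Figure D4:**
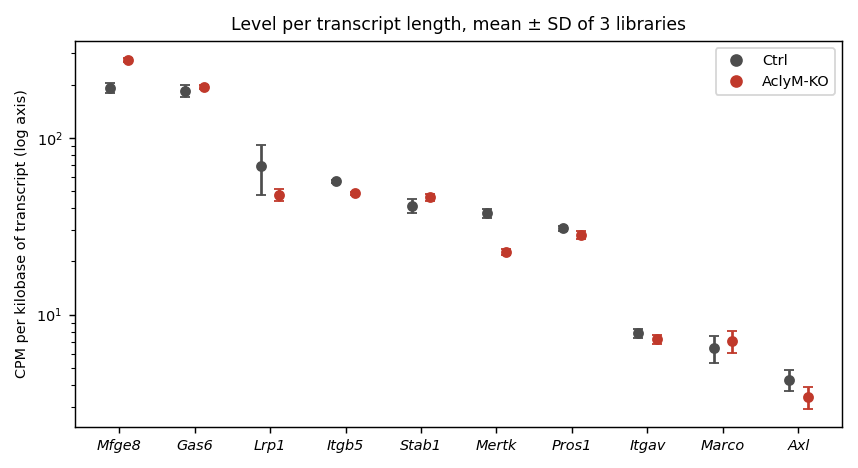
Mean level of the 10 genes in CPM per kilobase of transcript (log axis) with SD over 3 libraries, ordered by the Ctrl level, in Ctrl (grey) and AclyM-KO (red). *Mfge8* and *Gas6* lie together in Ctrl at 192 and 185 and apart in AclyM-KO at 274 and 194, and *Mertk* drops below *Pros1*.

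Genes that act beside the 10 were followed in lists, which were also chosen with earlier results of these data known. Of 16 tested receptors for apoptotic cells outside the set (21 listed), 5 fell and 5 rose, with a median log2 fold change of -0.0085. This is 62.5% of those tested, against 24.9% of all genes tested. With any 1 library dropped, 5 fell and 4 rose. *Scarf1*, a scavenger receptor that recognizes C1q on dying cells, fell from 13.8 ± 0.900 to 8.53 ± 1.07 CPM (n = 3 each, log2 fold change -0.70, edgeR adjusted p = 6.62e-04). *Cd300lf*, a phosphatidylserine receptor with inhibitory motifs, fell from 79.4 ± 1.84 to 51.8 ± 6.18 CPM (log2 fold change -0.62, edgeR adjusted p = 1.48e-05). Besides *Tyro3*, the receptors that rose included *Cd36*, which takes up oxidized lipids and binds thrombospondin, from 1972 ± 188 to 2556 ± 115 CPM (log2 fold change 0.37, edgeR adjusted p = 1.48e-04), and *Trem2*, a lipid receptor, from 687 ± 33.5 to 839 ± 26.1 CPM (log2 fold change 0.29, edgeR adjusted p = 2.63e-04). *Timd4*, which encodes the phosphatidylserine receptor TIM-4 of resident macrophages, was not tested, as it had at most 4 counts in a library.

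Of 18 other bridging proteins and opsonins, 13 were tested, of which 6 fell and 7 rose, with a median log2 fold change of 0.11. In either direction, 24.9% of all genes tested changed. With each library dropped, 5 to 6 of the 13 fell and 5 to 7 rose. *Apoe*, which coats lipid particles and dying cells, fell from 1366 ± 129 to 797 ± 42.4 CPM (log2 fold change -0.78, edgeR adjusted p = 2.18e-07). *C1qa*, *C1qb* and *C1qc* encode the 3 chains of the complement opsonin C1q and fell together, with log2 fold changes of -0.67, -0.44 and -0.53 (edgeR adjusted p = 6.99e-07, 2.27e-05 and 2.04e-06). *C3*, the central complement protein, fell by 0.51 on the log2 scale (edgeR adjusted p = 5.67e-04). *Thbs1*, which encodes thrombospondin-1, a bridge to CD36 and αvβ3, rose from 27.4 ± 2.23 to 62.2 ± 7.22 CPM (log2 fold change 1.18, edgeR adjusted p = 1.78e-07). The annexins *Anxa1* and *Anxa5*, which bind phosphatidylserine, rose by 0.43 and 0.46 on the log2 scale (edgeR adjusted p = 3.12e-06 and 1.12e-06).

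**Figure D5:**
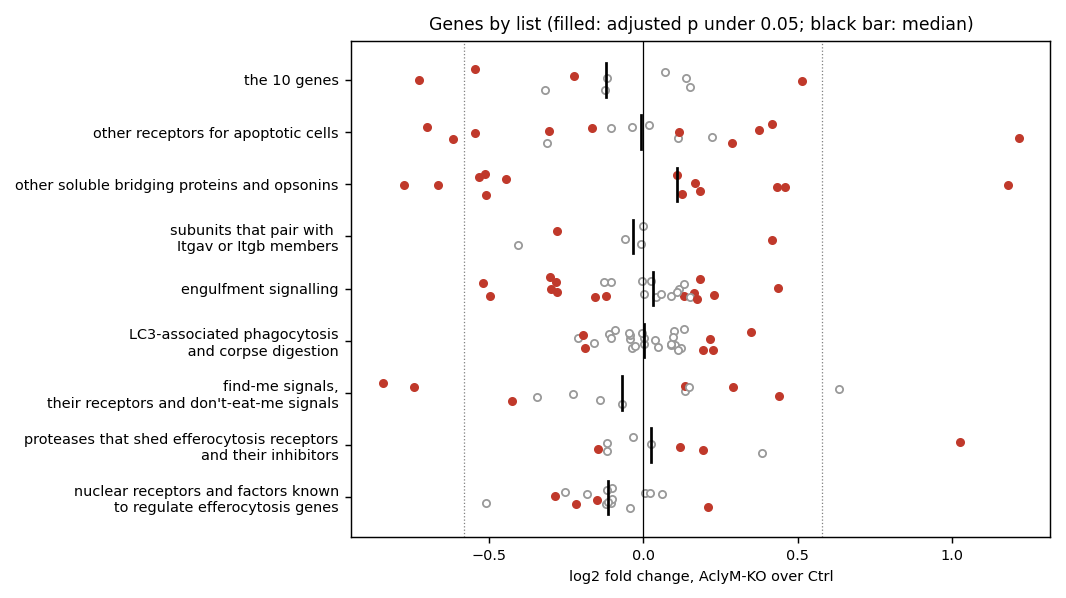
Log2 fold change of AclyM-KO over Ctrl (horizontal axis) for every tested gene of the 10 genes and of 8 lists, with filled points for an edgeR adjusted p under 0.05, black bars for the medians and dotted lines at 0.58 in both directions. The list of bridging proteins and opsonins has 13 of 13 points filled, on both sides of 0, whereas 6 of 29 are filled in the list of LC3-associated phagocytosis and corpse digestion.

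Of 26 tested genes of engulfment signalling, 8 fell and 6 rose, with a median of 0.03, and 0 passed the fold change limit. In either direction, 54% of this list changed, against 24.9% of all genes tested. *Abca1*, a cholesterol exporter that is induced in phagocytes after uptake, fell from 552 ± 64.4 to 391 ± 6.33 CPM (log2 fold change -0.50, edgeR adjusted p = 4.74e-05). Its transcript of 10262 bases is long, and its Ctrl levels were 518, 626 and 511 CPM. Without Ctrl library 2 the log2 fold change was smaller, at -0.40, and still passed. Of the Rac GTPases that drive the phagocytic cup, *Rac2* fell by 0.28 and *Rac1* had a log2 fold change of 0.23 (edgeR adjusted p = 5.30e-04 and 0.00194). Of 29 genes of LC3-associated phagocytosis and corpse digestion, 2 fell and 4 rose, or 20.7% of the list. Among those that rose were the lysosomal proteases *Ctsl* and *Ctsd*, with log2 fold changes of 0.35 and 0.22 (edgeR adjusted p = 2.65e-05 and 2.58e-05).

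Among 13 tested find-me signals, their receptors and don't-eat-me signals, 3 fell and 3 rose (median -0.07). This is 46.2% of them, against 24.9% of all genes tested. *Pecam1*, which macrophages share with endothelial cells and which lets living cells detach, fell from 15.6 ± 0.783 to 9.27 ± 0.697 CPM (log2 fold change -0.74, edgeR adjusted p = 1.44e-04). *Pilra*, an inhibitory receptor, was at 5.61, 13.2 and 7.06 CPM in Ctrl and at 4.30, 5.47 and 4.39 CPM in AclyM-KO (log2 fold change -0.84, edgeR adjusted p = 0.0242). It did not pass without Ctrl library 2 (-0.42, edgeR adjusted p = 0.115), without AclyM-KO library 1 (-0.78, edgeR adjusted p = 0.0800) or without AclyM-KO library 3 (-0.79, edgeR adjusted p = 0.0809), nor with DESeq2 (-0.87, DESeq2 adjusted p = 0.108).

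MerTK and LRP1 can be shed from the cell surface by proteases. Of 9 tested proteases and regulators of shedding, 1 fell and 3 rose (median 0.02), or 44.4% against 24.9% of all genes tested. *Adam10* and *Timp2* rose, with log2 fold changes of 0.19 and 0.12 (edgeR adjusted p = 0.00820 and 0.0376). *Furin* fell (log2 fold change -0.15, edgeR adjusted p = 0.0265). With each library dropped, 0 to 2 genes of this list fell and 0 to 2 rose. *Adam17*, the protease that cleaves MerTK, was at 230 ± 9.07 and 212 ± 0.874 CPM and did not pass (log2 fold change -0.12, edgeR adjusted p = 0.0861). *Rhbdf1*, which encodes the inactive rhomboid iRhom1 that matures this protease, passed the fold change limit at a very low level, with 10, 7 and 15 counts in Ctrl and 27, 24 and 22 in AclyM-KO (log2 fold change 1.03, edgeR adjusted p = 0.0342). It no longer passed without any 1 of 5 libraries, Ctrl 1 or 2 or AclyM-KO 1, 2 or 3, where its edgeR adjusted p lay between 0.0647 and 0.113, nor with DESeq2 (DESeq2 adjusted p = 0.0930). The related *Rhbdf2*, in the same list, was far more abundant, at 79.6 ± 3.53 CPM in Ctrl and 73.3 ± 5.70 CPM in AclyM-KO. It did not pass the test (log2 fold change -0.12, edgeR adjusted p = 0.179).

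Of 17 tested nuclear receptors and other factors known to regulate efferocytosis genes, 3 fell and 1 rose, which is 23.5% of the list against 24.9% of all genes tested, with a median log2 fold change of -0.11, and 0 passed the fold change limit. *Rxra*, the shared partner of LXR and PPAR receptors, fell from 83.9 ± 6.25 to 68.9 ± 4.19 CPM (log2 fold change -0.29, edgeR adjusted p = 0.00391). *Spi1*, which encodes PU.1, fell from 234 ± 2.98 to 201 ± 7.11 CPM (log2 fold change -0.22, edgeR adjusted p = 0.00350). *Nr1h3* and *Nr1h2*, which encode LXRα and LXRβ, known regulators of *Mertk*, *Apoe* and *Abca1*, had log2 fold changes of -0.18 and -0.10 and did not pass the test (edgeR adjusted p = 0.181 and 0.169). *Srebf2*, the master regulator of cholesterol synthesis, was the gene that rose, from 285 ± 2.15 to 330 ± 5.34 CPM (log2 fold change 0.21, edgeR adjusted p = 0.00271).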

How the data were processed

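RNA of IL-4-treated BMDMs was sequenced from strand-specific mRNA libraries. Per the labels and the methods, the authors used CASAVA 1.8.2 and STAR 2.5.2b with mm10 and deposited raw counts per RefSeq transcript, and the counting program is not given in the sources used here. Of 35745 rows, 35440 were paired with genes through RefSeq (GRCm38.p6) and 188 through GENCODE M21. The other 117 rows (0.370% to 1.38% of counts) were left out. Reads were counted on all isoforms that hold them and on either strand, so 1 row per gene, that with the most counts, was kept. Positions of genes come from GENCODE M21 (GRCm38). Members with several rows had identical counts on each.

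The test was edgeR's quasi-likelihood F-test (version 4.0.16, R 4.3.3) after filterByExpr and TMM scaling, with genotype as sole factor, and p-values were adjusted over 12023 genes by Benjamini-Hochberg. CPM use TMM-scaled library sizes and CPM per kilobase the transcript length. Alternatives were DESeq2 1.42.0, limma-voom (limma 3.58.1), other scalings and filters, the longest transcript, thinned libraries, glmTreat, a replicate block and each library left out. The procedure was tested on simulated data. The members and lists were chosen with earlier results of these data known. The rule for named genes took the 10 members, *Acly*, *Tyro3*, partner integrins and, from each list, up to 4 genes past the fold change limit with the largest changes. *C1qb*, *C1qc*, *C3*, *Cd36*, *Trem2*, *Anxa1*, *Anxa5*, *Abca1*, *Rac1*, *Rac2*, *Ctsl*, *Ctsd*, *Adam17*, *Adam10*, *Timp2*, *Furin*, *Rhbdf2*, *Rxra*, *Spi1*, *Nr1h2*, *Nr1h3* and *Srebf2* were named after their values were seen. The ratios between genes and the check by transcript length were added then too.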

Additional observations from a re-analysis of the deposited data

How the results depend on the processing

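*Mertk*, *Itgb5*, *Mfge8* and *Acly* kept their direction and their side of the threshold in all 16 alternatives, with log2 fold changes of -0.76 to -0.68, -0.25 to -0.21, 0.46 to 0.55 and -1.31 to -1.24. *Gas6*, *Itgav* and *Marco* did not pass in any of them. *Lrp1* failed with DESeq2 and without AclyM-KO replicate 2, and its change lay between -0.69 and -0.26 over the left-out libraries. *Axl* passed with no filter on low counts (-0.33, adjusted p = 0.0215), and *Stab1* with limma-voom (adjusted p = 0.0477) and with no filter (adjusted p = 0.0260), so that 2 members rose in each of these settings. With no filter, *Lrp1* had an edgeR adjusted p of 5.93e-34 despite its outlying Ctrl library, against 0.00982 in the main fit. Passes in that setting are therefore not directly comparable with those in the others. With glmTreat, which tests against the limit of 0.58 itself, 0 members and 41 of all genes were called lower and 77 higher. Leaving out each library gave 2 to 4 members falling, 1 to 2 rising and 1 to 2 past the limit downward, 972 to 1548 of all genes falling and 1002 to 1512 rising, with the lowest of these counts of all genes and of falling members without AclyM-KO replicate 2. The further gene past the limit was *Lrp1*, without Ctrl replicate 1 or 3 or AclyM-KO replicate 1, and the further gene that rose was *Stab1*, without Ctrl replicate 2. In engulfment signalling 5 to 8 genes then fell and 2 to 7 rose, in corpse digestion 1 to 4 fell, and among the proteases 0 to 2 fell and 0 to 2 rose. With library totals only, 5 corpse digestion genes and 2 proteases fell, and 1 protease or regulator rose with DESeq2 and with thinned libraries. *Itgb1* changed sign with upper quartile scaling (0.00248) and over the left-out libraries (-0.0256 to 0.0268). No pairing by replicate number was seen. The deviations of same-numbered libraries from their group means correlated by -0.07, 0.05 and -0.03, and not every library correlated best with its own number. With 3 libraries per group, this check cannot exclude a pairing. With a replicate block, 1329 of all genes fell and 1315 rose, 3 members fell and 1 rose, *Mertk* had a log2 fold change of -0.73, and 0 proteases fell. The cause of these changes was not tested.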
